A study of Schizosaccharomyces pombe with 32 samples.

Results

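The 9 genes described here are the hexose transporter genes ght1 to ght8 and the invertase gene inv1 of the fission yeast Schizosaccharomyces pombe. They were taken by their symbols in the platform annotation, which gave 1 probe set for each of the 9, among 4972 probe sets in all (2903 with 1 gene symbol, 16 with several and 2053 unnamed here). Total RNA was measured on 32 single-colour arrays of the homothallic strain JB50 (h90), grown in YES broth, a rich medium with glucose, in shake flasks at 32 °C. The stressed series comprised 2 batch cultures, each sampled without peroxide (0 min) and after hydrogen peroxide was added to 0.5 mM, at 5, 10 and 15 min, then 30, 50, 60 and 90 min, and lastly 120, 180 and 240 min. The untreated series comprised 2 further batch cultures of the same strain without peroxide, sampled hourly from 0 to 240 min. Each of the 16 combinations of series and time therefore holds 2 arrays, and each culture was followed through time. Per the growth protocol, peroxide was given at more than 1 cell density, but which density an array had was not recorded with it. Whether the 2 stressed cultures differed in density is therefore not known. Density cannot be told apart from other differences between them.

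Fission yeast takes up hexoses through a family of plasma membrane transporters, the Ght proteins. Ght5 is known as the high-affinity glucose transporter on which growth in low glucose depends, Ght1 and Ght2 also carry glucose, Ght6 prefers fructose, and Ght3 carries gluconate. Inv1 is the secreted invertase that splits sucrose into glucose and fructose outside the cell, and its gene is a classical target of glucose repression, in which glucose in the medium keeps genes for other carbon sources low. The signals below are the deposited values per probe set, on a linear scale of unknown calibration. Levels of different probe sets are not compared, except where a percentile within the array is given. A change is a log2 difference between group means with its standard error (SE), and a gene is called when the adjusted p of limma's moderated test, over all 4972 probe sets, is under 0.05. In bulk cultures, fewer cells of a kind and less RNA per cell cannot be told apart.

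Array medians lay between 1.52 and 2.0. The array of stressed culture 2 at 30 min stood apart: its highest correlation with any other array was 0.909, against at least 0.973 for each of the other 31. The changes at 30 min that are given for single genes from all arrays are also given without this array. Because each culture was followed through time, calls from a second fit with the culture as a replicate block are given where they differ. Over all probe sets, the changes of the 2 stressed cultures correlated at 0.35, 0.5, 0.63 and 0.59 at 5, 10, 15 and 30 min, at 0.85, 0.83, 0.62 and 0.67 at 50, 60, 90 and 120 min, and at 0.29 and 0.04 at 180 and 240 min. Those of the untreated cultures correlated at 0.45, 0.58, 0.84 and 0.77, hourly from 60 to 240 min. These values are across probe sets, which are not independent replicates.

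The invertase gene inv1 had higher signals at 30 to 90 min of peroxide than at 0 min in both stressed cultures, and the cultures parted after 90 min. In stressed culture 1 the inv1 signal was 0.0711 before peroxide, 0.156, 0.112 and 0.339 at 5, 10 and 15 min, 3.15, 3.72, 2.92 and 2.14 at 30, 50, 60 and 90 min, and 0.57, 0.181 and 0.183 at 120, 180 and 240 min. In stressed culture 2 it was 0.102 before peroxide, 0.0982, 0.211 and 0.692 at 5, 10 and 15 min, 2.72, 5.77, 5.9 and 8.28 at 30, 50, 60 and 90 min, and 7.58, 5.91 and 5.84 at 120, 180 and 240 min. Both arrays lay above both 0 min arrays at every time from 10 min on, whereas the 5 min arrays overlapped them. The highest signal was 52.4-fold the culture's own 0 min value in culture 1, at 50 min, and 80.9-fold in culture 2, at 90 min.

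Without peroxide inv1 stayed between 0.0731 and 0.189. Both untreated cultures had their highest signal at 240 min, 2.06-fold and 1.99-fold their own 0 min value. Untreated culture 1 gave inv1 signals of 0.0918, 0.11, 0.133, 0.157 and 0.189, hourly from 0 to 240 min. Untreated culture 2 gave 0.0812, 0.0731, 0.0835, 0.125 and 0.161 at the same times. The highest untreated inv1 signal lay above the last 2 values of stressed culture 1 and below every value of either stressed culture from 15 to 120 min. The change at 240 min without peroxide was 1.02 ± 1.39 (SE, n = 2, adjusted p = 0.721, limma), with 1.04 and 0.99 in the 2 cultures.

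**Figure D1:**
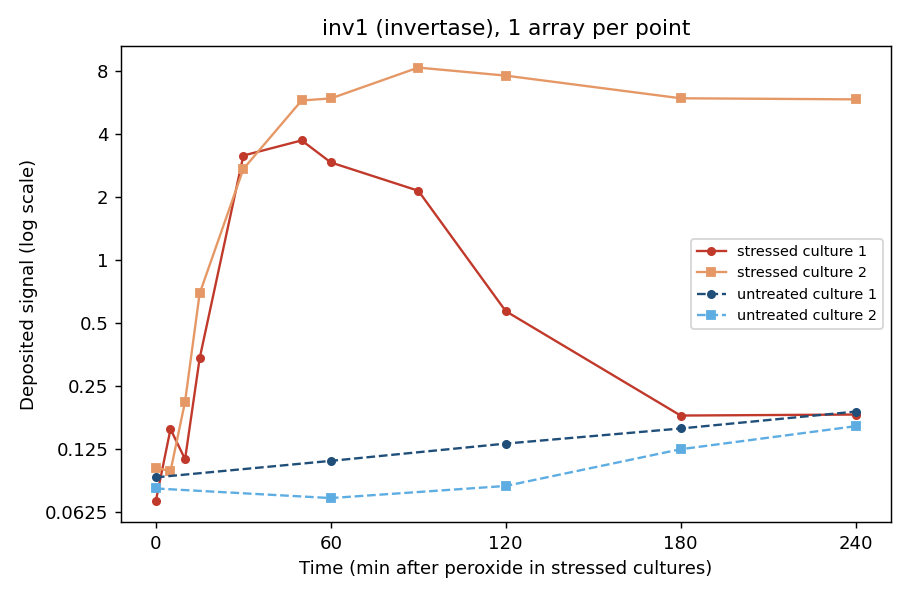
Deposited signal of inv1 (vertical axis, log scale) against time in minutes, 1 array per point and 1 line per culture. Both stressed cultures climb between 10 and 50 min, culture 1 is at 0.183 and culture 2 at 5.84 at 240 min, and the untreated cultures lie between 0.0731 and 0.189.

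In the fit over all 32 arrays no member was called at any stressed time. At 120 and 180 min 0.161% and 0.0402% of the probe sets were called. The change of inv1 was 5.10 ± 1.39 at 30 min (adjusted p = 0.0817), 5.76 at 50 min (0.0713), 5.61 at 60 min (0.0747) and 5.63 at 90 min (0.0773), with the same SE and n = 2. Of all probe sets 1.07%, 0.302%, 0.543% and 0.322% were called at these 4 times. Without the array that stands apart the inv1 change at 30 min was 5.21 ± 1.75 (adjusted p = 0.303). At 60 min the inv1 change was 48.7-fold, from a mean signal of 0.0867 ± 0.0221 (SD, n = 2) to 4.41 ± 2.11, with a 95% interval of the log2 change from 2.71 to 8.50. The shared SD of inv1 over the 16 groups was 1.39 on the log2 scale, higher than for 99.6% of the probe sets, whose median SD was 0.39.

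With the culture as a block inv1 rose at 30 min (adjusted p = 0.0114), 50 min (0.0152), 60 min (0.0206) and 90 min (0.0244), where 8.17%, 1.05%, 1.09% and 0.764% of the probe sets were called. With the block and without the array that stands apart, inv1 was called at 30 min as well (6.17 ± 1.32, adjusted p = 0.0425, with 1.13% of probe sets called). The F-test over the 10 stressed times gave inv1 an adjusted p of 0.148 without the block (0.483% of probe sets called) and 0.021 with it (1.03%). When only the stressed arrays from 0 to 60 min entered the fit, the array that stands apart among them, the SE at 30 min was 0.48 and inv1 was called there (adjusted p = 0.00456), with 2.7% of probe sets called. Without the 30 min arrays as well, it was called at 50 min (0.000572, with 17.5% of probe sets called) and at 60 min (0.000567, with 16.3%). The size of the fold depends on the low 0 min signal, whose floor is unknown: a pseudocount of 0.1 gave 22.9-fold at 60 min and a pseudocount of 0.5 gave 7.98-fold.

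The early inv1 values were smaller and were not called. At 15 min the change was 2.51 ± 1.39 (adjusted p = 0.999), with 2.26 in culture 1 and 2.76 in culture 2, and 0.0% of the probe sets were called at 5, 10 or 15 min. The step from 15 to 60 min was nearly equal in both cultures, at 3.11 and 3.09. It was not called over all arrays, where 0.0% of the probe sets were, and it was called in the fit of stressed arrays from 0 to 60 min without 30 min (3.10 ± 0.50, adjusted p = 0.0491), where 0.362% of the probe sets passed. Among all 4972 probe sets the inv1 change ranked 21st from the highest at 15 min, 7th at 50 min and 12th at 60 min.

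At late times the inv1 values of the 2 stressed cultures differed widely. The change from a culture's own 0 min array was 4.91 and 6.34 at 90 min, 3.00 and 6.21 at 120 min, 1.35 and 5.85 at 180 min, and 1.36 and 5.83 at 240 min, for culture 1 and culture 2. From 60 to 240 min the log2 difference was -4.0 in culture 1 and -0.02 in culture 2, a comparison in which 0.0% of the probe sets were called over all arrays. The group means at 240 min, 3.01 ± 4.0 (SD, n = 2), therefore describe neither culture, and the change of 3.60 ± 1.39 there was not called (adjusted p = 0.942, with 0.0201% of probe sets called). Whether the starting density bears on this difference was not tested.

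The change of inv1 after peroxide less its change without peroxide was 5.55 ± 1.96 at 60 min (adjusted p = 0.594) and 2.58 ± 1.96 at 240 min (adjusted p = 0.705). Neither was called, at times when 0.0402% and 1.49% of the probe sets were. With only the arrays of the groups compared in the fit, the difference at 60 min had an SE of 0.54 and was called (adjusted p = 0.00427, with 2.63% of probe sets called). Ordered by geometric mean, the 8 highest inv1 groups were the stressed times from 15 to 240 min, and 1 of 15 neighbouring pairs of groups in that order did not overlap, the step from stressed 15 min down to untreated 240 min.

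In the fit over all arrays the calls among transporter genes came from the late untreated times. At 180 min 3 of the 9 genes passed the test, ght1 higher and ght2 and ght8 lower, when 5.53% of all probe sets did (3.66% higher and 1.87% lower). At 240 min 4 of 9 passed, ght1 and ght7 higher and ght2 and ght8 lower, when 9.86% of all probe sets did (5.89% higher and 3.96% lower). No member was called at 60 or 120 min, when 0.0402% and 1.13% of probe sets were. At an unadjusted p under 0.05, limma gave 0 members at 60 min and 1 at 120 min, against 120 and 467 of all 4972 probe sets.

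ght1, a glucose transporter gene, rose late. Its signal in untreated culture 1 was 0.126, 0.0752, 0.118, 0.456 and 0.624, hourly from 0 to 240 min. In untreated culture 2 it was 0.0701, 0.0448, 0.0713, 0.367 and 0.618. The 180 and 240 min arrays of both cultures lay above every other array of the study, and the mean rose from 0.0978 ± 0.0392 (SD, n = 2) to 0.621 ± 0.00445. The change was 2.12 ± 0.47 at 180 min (4.36-fold, adjusted p = 0.0105) and 2.73 ± 0.47 at 240 min (6.62-fold, adjusted p = 0.00124). With a pseudocount of 0.1 the 240 min change was 3.68-fold and with 0.5 it was 1.88-fold, and ght1 was called under both.

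In the stressed cultures ght1 showed no such late increase. Stressed culture 1 gave ght1 signals of 0.0593 before peroxide, 0.119, 0.0726 and 0.124 at 5, 10 and 15 min, 0.127, 0.0396, 0.0416 and 0.0728 at 30, 50, 60 and 90 min, and 0.0561, 0.0732 and 0.104 at 120, 180 and 240 min. Stressed culture 2 gave 0.053, 0.0716, 0.0792, 0.102, 0.299, 0.0477, 0.0491, 0.0557, 0.0505, 0.039 and 0.0336 at the same times. Both cultures were highest at 30 min and both had lower signals at 50 min than at 0 min. The change at 30 min was 1.80 ± 0.47 (adjusted p = 0.0728). This change was called with the culture block (0.0188), when 8.17% of probe sets were. Without the array that stands apart it was 1.18 ± 0.54 (adjusted p = 0.445, with 0.121% of probe sets called), and it was not called with the block either (0.185).

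ght2, which also encodes a glucose transporter, fell without peroxide. Untreated culture 1 gave ght2 signals of 3.98, 3.14, 1.95, 1.56 and 1.31, hourly from 0 to 240 min. Untreated culture 2 gave 5.73, 3.88, 2.9, 1.32 and 1.47. From 60 min on, every untreated array lay below both untreated 0 min arrays. The change was -1.74 ± 0.35 at 180 min (3.33-fold lower, adjusted p = 0.00425) and -1.78 ± 0.35 at 240 min (3.44-fold lower, adjusted p = 0.00278).

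With peroxide ght2 signals were above their start at early times and near it again by 240 min. Stressed culture 1 gave ght2 signals of 4.5 before peroxide, 6.72, 10.3 and 10.3 at 5, 10 and 15 min, 11.6, 8.62, 5.78 and 4.3 at 30, 50, 60 and 90 min, and 4.17, 4.08 and 4.96 at 120, 180 and 240 min. Stressed culture 2 gave 4.53, 5.77, 6.76, 8.41, 5.55, 9.11, 8.74, 7.13, 6.1, 5.54 and 5.11. Both stressed arrays lay above both 0 min arrays from 5 to 60 min. The change of 1.05 ± 0.35 at 15 min had an unadjusted p of 0.0069 and was not called (adjusted p = 0.999). The change at 30 min was 0.83 ± 0.35 (adjusted p = 0.27), and without the array that stands apart, the lower of the pair, it was 1.37 ± 0.37 (adjusted p = 0.163). At 50 min the change of 0.97 was not called over all arrays (adjusted p = 0.173, with 0.302% of probe sets called). It was called among stressed arrays from 0 to 60 min without 30 min (0.97 ± 0.27, adjusted p = 0.0381), when 17.5% of probe sets were.

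ght8, a further member of the transporter family, lay next to ght1 in the RefSeq gene order. Without peroxide it moved opposite to ght1 at 180 and 240 min, while both had lower signals at 60 min than at 0 min. Untreated culture 1 gave ght8 signals of 4.81, 4.46, 3.15, 2.25 and 2.0, hourly from 0 to 240 min. Untreated culture 2 gave 5.91, 4.59, 4.15, 2.62 and 2.15. Both cultures had their lowest signal at 240 min, and the 180 and 240 min arrays lay below every other array of the study. The change was -1.13 ± 0.30 at 180 min (2.2-fold lower, adjusted p = 0.0308) and -1.36 ± 0.30 at 240 min (2.57-fold lower, adjusted p = 0.00725). With the arrays centred on their medians the 180 min adjusted p was 0.0622. Stressed ght8 signals lay between 3.26 and 5.6 in culture 1 and between 3.62 and 7.8 in culture 2, and the values at 240 min were 0.08 and -0.56 from the 0 min array on the log2 scale in the 2 cultures.

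ght7 and ght4 had higher late signals without peroxide as well. Untreated culture 1 gave ght7 signals of 0.0807, 0.0553, 0.152, 0.197 and 0.221, hourly from 0 to 240 min, and untreated culture 2 gave 0.0653, 0.0681, 0.0905, 0.138 and 0.154. From 120 min on, both cultures lay above both 0 min arrays. Over all arrays the ght7 signals lay between percentiles 1.6 and 6.2 of the probe sets within an array, with no known floor. The ght7 change was 1.18 ± 0.41 at 180 min (adjusted p = 0.113) and 1.35 ± 0.41 at 240 min (2.54-fold, adjusted p = 0.0438). The 240 min call was lost under quantile normalization (0.79, adjusted p = 0.139), with a pseudocount of 0.5 (0.26, 0.106) and without either stressed 0 min array (1.35, 0.0532 each). With the culture block ght7 was called at both times (0.0271 and 0.00941).

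Untreated culture 1 gave ght4 signals of 0.876, 1.15, 1.25, 1.7 and 1.8, hourly from 0 to 240 min, and untreated culture 2 gave 0.597, 0.791, 0.948, 1.32 and 1.49. Each culture had a higher ght4 signal at each later time. The change was 1.05 ± 0.39 at 180 min (adjusted p = 0.151) and 1.18 ± 0.39 at 240 min (adjusted p = 0.0656), and it was called with the culture block at both times (0.0293 and 0.0109). The block raised the number of members called at 180 min from 3 to 5, when 12.1% of all probe sets were called, and at 240 min from 4 to 5, when 19.1% were.

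Neither gene had its high signals late in the stressed series. Stressed ght4 lay between 0.496 and 0.818 in culture 1 and between 0.208 and 0.612 in culture 2, whose lowest value was on the array that stands apart. Stressed ght7 lay between 0.0555 and 0.113 in culture 1 and between 0.0397 and 0.0855 in culture 2. At 240 min the ght4 change was -0.01 ± 0.39 (adjusted p = 0.995) and the ght7 change was -0.57 ± 0.41 (adjusted p = 0.942).

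With 1 untreated culture left out, each untreated group held 1 array, assumed to vary like the stressed groups, and no member was called at 180 or 240 min. The changes stayed about as large: the ght1 change at 240 min was 3.14 without culture 1 and 2.31 without culture 2, and the ght2 change was -1.97 and -1.60. Over all arrays the F-test over the 4 untreated times called ght1 (adjusted p = 0.000241), ght2 (0.00635) and ght8 (0.0251), when it called 5.07% of all probe sets. With the culture block this F-test called ght7 as well (adjusted p = 0.00824). At 240 min the 2 untreated cultures moved in the same direction for 8 of 9 members, against 72.9% of all probe sets, and the 2 stressed cultures for 3 of 9, against 45.2%.

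**Figure D2:**
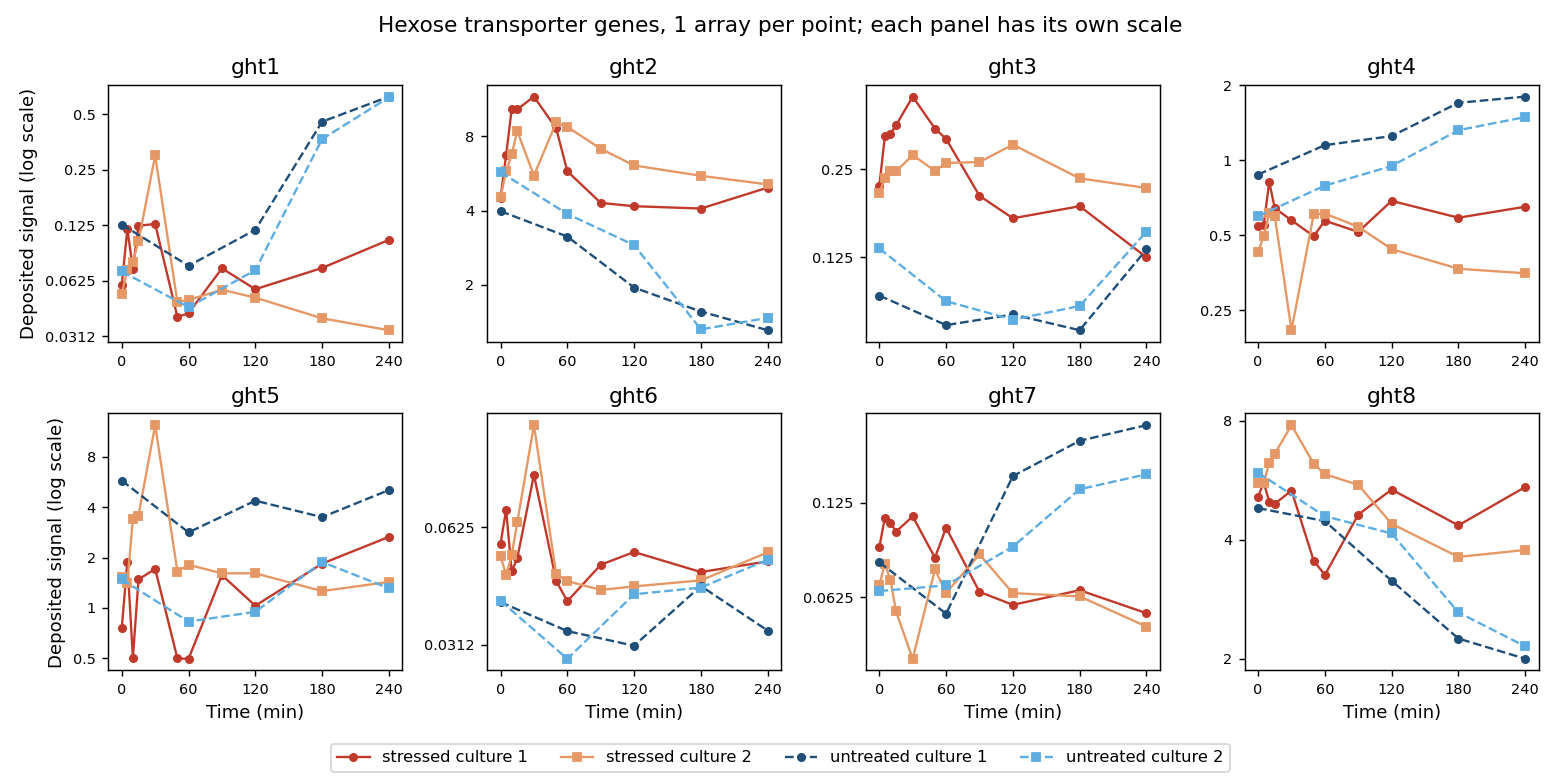
Deposited signal of each hexose transporter gene (vertical axis, log scale, a separate scale in each panel) against time in minutes, 1 array per point and 1 line per culture. Without peroxide (dashed) ght1, ght4 and ght7 end high and ght2 and ght8 end low in both cultures, while ght5 ends at 5.07 in culture 1 and 1.31 in culture 2.

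Whether peroxide altered these courses was tested as the stressed change less the untreated change. Over all 32 arrays no member passed at 60, 120, 180 or 240 min, with 0.0402%, 0.261%, 1.45% and 1.49% of probe sets called. An unadjusted p under 0.05 from limma was seen for 2, 2, 3 and 5 members, against 329, 421, 508 and 590 of all 4972 probe sets. The difference at 240 min was -2.65 ± 0.67 for ght1 (adjusted p = 0.0535), 1.94 ± 0.49 for ght2 (0.0528), -1.92 ± 0.58 for ght7 (0.113), -1.19 ± 0.56 for ght4 (0.41) and 1.12 ± 0.43 for ght8 (0.254). With the culture block ght1, ght2 and ght7 were called at 240 min (0.0174, 0.0227 and 0.0229) and ght2 at 180 min (0.0383), when 6.3% and 4.61% of probe sets were. Without the 30 min array of stressed culture 2, and with no block, ght1, ght2 and ght7 were called at 240 min over the other 31 arrays (0.0328, 0.0249 and 0.0484), when 1.81% of probe sets were.

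**Figure D3:**
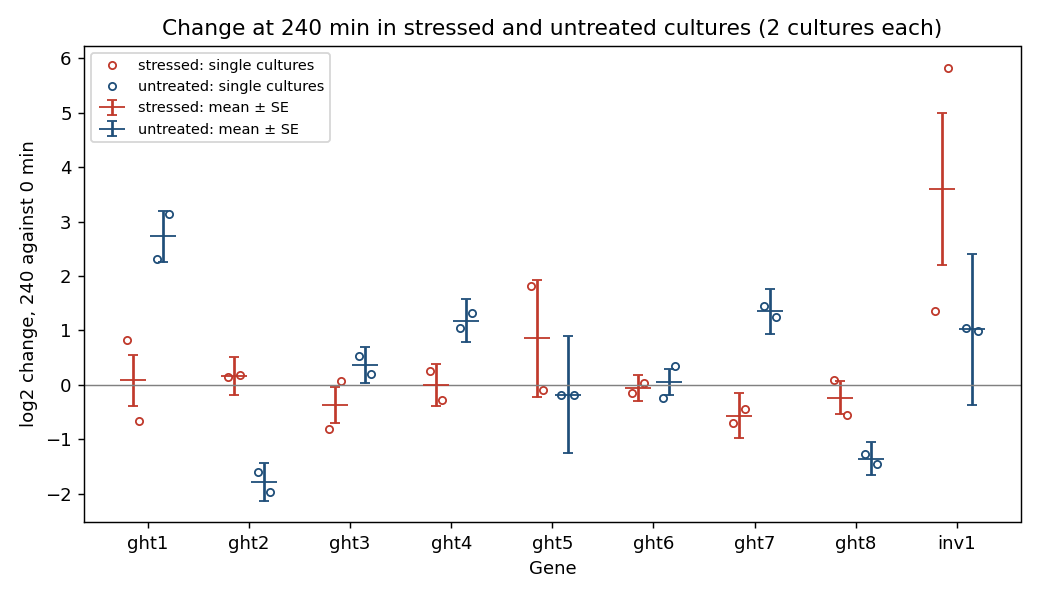
Log2 change from 0 to 240 min for each gene (horizontal axis), for stressed (red) and untreated (blue) cultures. Open circles are single cultures against their own 0 min array, and bars show the fitted mean ± SE (n = 2 cultures). ght1 is at 2.73 without and 0.08 with peroxide, ght2 at -1.78 and 0.16, and the stressed inv1 circles lie at 1.36 and 5.83.

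The remaining 3 genes, like inv1 and ght4, were not called in any comparison over all arrays. ght5, the high-affinity glucose transporter gene, differed between the untreated cultures and varied within the stressed ones. Untreated culture 1 gave ght5 signals of 5.78, 2.83, 4.38, 3.49 and 5.07, hourly from 0 to 240 min, and untreated culture 2 gave 1.48, 0.828, 0.947, 1.88 and 1.31. Every value of untreated culture 1 exceeded every value of untreated culture 2, and the change at 240 min was -0.19 and -0.18 in the 2 cultures. The shared SD of ght5 was 1.07 on the log2 scale, higher than for 98.8% of the probe sets.

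Stressed ght5 signals were 0.757, 1.89, 0.502, 1.48, 1.71, 0.498, 0.496, 1.57, 1.03, 1.84 and 2.66 in culture 1, from 0 to 240 min. In culture 2 they were 1.53, 1.41, 3.41, 3.57, 12.4, 1.65, 1.81, 1.61, 1.61, 1.26 and 1.43. The medians of the 2 cultures were 1.48 and 1.61, the highest signal was 5.36-fold and 9.82-fold the lowest, and which culture was higher changed with time. The highest value came from the array that stands apart. With it the change at 30 min was 2.09 ± 1.07 (adjusted p = 0.378) and without it 0.67 ± 1.21 (adjusted p = 0.907). No 2 neighbouring groups in the order of ght5 levels were free of overlap.

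ght3, the gluconate transporter gene, differed in level between the series and also varied over time. In stressed culture 1 its highest signal was 3.55-fold its lowest. Stressed culture 1 gave ght3 signals from 0.125 at 240 min to 0.444 at 30 min (median 0.318), and stressed culture 2 from 0.207 at 0 min to 0.304 at 120 min (median 0.246). The untreated arrays lay between 0.0703 and 0.153, so that 1 of the 22 stressed arrays, culture 1 at 240 min, fell within their range. The series already differed at 0 min, with 0.219 and 0.207 in the stressed cultures and 0.0924 and 0.134 in the untreated ones. That difference was 0.94 ± 0.33 (unadjusted p = 0.0111, adjusted p = 1.0) and was not called, as for 0.0% of all probe sets. The ght3 change at 30 min of peroxide was 0.73 ± 0.33 (adjusted p = 0.321), and without the array that stands apart it was 1.06 ± 0.39 (0.381).

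ght6, the fructose-preferring transporter gene, had its highest signals at 30 min of peroxide, 0.0851 in culture 1 and 0.114 in culture 2. The other stressed arrays lay between 0.0404 and 0.0693 and the untreated arrays between 0.0288 and 0.0516. All ght6 signals lay between percentiles 0.7 and 5.1 of the probe sets within an array, and the floor of such signals is unknown. The change at 30 min was 0.85 ± 0.24 (adjusted p = 0.0888), and it was called with the culture block (0.0286), when 8.17% of probe sets were. Without the array that stands apart it was 0.64 ± 0.28 (adjusted p = 0.437), and it was not called with the block either (0.178).

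Over all 32 arrays, with no block, none of the 9 members was called in the first 30 min of peroxide. Of all probe sets 0.0% were called at 5, 10 and 15 min and 1.07% at 30 min. With the culture block inv1, ght1 and ght6 were called at 30 min, when 8.17% of probe sets were. With the block and without the array that stands apart, only inv1 was, with 1.13% of probe sets called. Counted at 5, 10, 15 and 30 min, 3, 5, 5 and 6 members had both arrays above both 0 min arrays, against 7.48%, 11.1%, 19.1% and 26.3% of all probe sets. No member had both arrays below at these times, against 17.4%, 18.9%, 21.2% and 22.6%. The comparisons share the same 0 min arrays, and the 30 min count uses the array that stands apart. On the 30 min array of culture 1 alone 8 members lay above both 0 min arrays and 0 below both, against 47.2% and 33.2% of all probe sets. The 2 cultures moved in the same direction for 5, 6, 6 and 7 of 9 members at these 4 times, against 53.6%, 58.4%, 64.3% and 69.3% of all probe sets. The median log2 change of the 9 members was 0.47 at 15 min and 0.83 at 30 min, against -0.04 and -0.02 for all probe sets, and 0.06 at 60 min and -0.01 at 240 min, against -0.11 and -0.06. Without the array that stands apart the 30 min median was 0.67 for the members and 0.09 for all probe sets. At an unadjusted p under 0.05, limma gave 0, 1, 2 and 5 members at 5, 10, 15 and 30 min, 2 at 50 min and 1 at each later stressed time. Of all 4972 probe sets, 21, 66, 149 and 718 passed at 5, 10, 15 and 30 min, and 950 at 50 min. Later counts over all probe sets were 941, 642, 453, 254 and 191 at 60, 90, 120, 180 and 240 min.

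**Figure D4:**
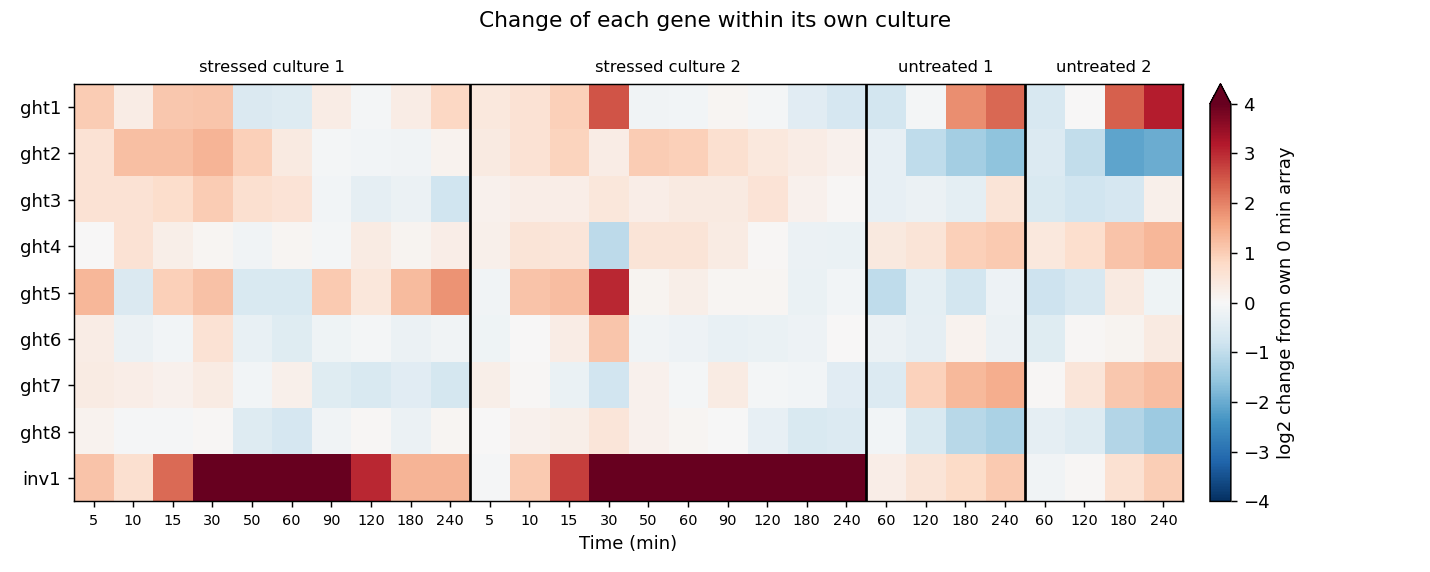
Log2 change of each gene (rows) from its culture's own 0 min array, by culture and time in minutes (columns). Red is higher and blue lower, and values above 4 share the darkest red. inv1 stands out from 30 min in both stressed cultures and to 240 min in culture 2. In the untreated cultures ght1 (2.31 and 3.14 at 240 min) and ght2 (-1.60 and -1.97) take opposite colours at 180 and 240 min. At 60 min both genes are blue there.

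The likeness of patterns is described by Pearson's r of log2 signals over the 32 arrays, which come from 4 cultures followed through time. Between members, ght2 and ght8 gave 0.97 over the 10 untreated and 0.16 over the 22 stressed arrays. ght1 and ght8 gave -0.92 and 0.66, and ght1 and ght2 -0.87 and 0.16. ght4 and ght7 gave 0.84 and 0.57. Over all 32 arrays the closest pair was ght2 and ght3, at 0.79, with -0.05 over the untreated and 0.75 over the stressed arrays. Without the array that stands apart that pair stayed at 0.79, while ght1 and ght4 went from 0.58 to 0.81. The ranking therefore depends on this array, and ght1 and ght4 were the closest pair without it. The values over stressed arrays and the most similar genes below were not recomputed without it.

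Among all probe sets with 1 gene symbol, the 3 most like inv1 were atm1, a mitochondrial ABC transporter gene (0.936), isp6, a vacuolar protease gene (0.934), and yak3 (0.926). Over the untreated arrays alone these values were 0.275, 0.351 and 0.712, and over the stressed arrays 0.912 to 0.95. For ght1 they were mok11, an alpha-glucan synthase gene (0.921), mug125 (0.889) and tlh2 (0.882), with 0.796 to 0.853 over stressed and 0.879 to 0.947 over untreated arrays. For ght2 they were jmj1 (0.915), psd3 (0.913) and the phospholipase gene plb1 (0.901), with 0.64 to 0.885 and 0.883 to 0.919. For ght3, whose level differed between the series, they were the catalase gene ctt1 (0.904), the sulfiredoxin gene srx1 (0.901) and mug153 (0.876). Within the series these were lower, at 0.703, 0.704 and 0.731 over stressed and 0.65, 0.852 and 0.126 over untreated arrays.

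For ght8 the most like was the hexokinase gene hxk2 (0.929), followed by arp8 (0.92) and ala1 (0.919), with 0.848 to 0.874 over stressed and 0.906 to 0.931 over untreated arrays. For ght4 the highest were vps71, mnh1 and sec74 (0.937 to 0.926), with 0.749 to 0.869 and 0.81 to 0.889 within the series. For ght7 they were cdc5, meu26 and rhp41 (0.851 to 0.815), with 0.557 to 0.704 and 0.872 to 0.955. For ght6 (lat1, pmk1 and cbf12) and ght5 (pac1, pog1 and mbx2) no gene exceeded 0.774 and 0.761. Over the untreated arrays lat1, pmk1 and cbf12 gave 0.481, -0.371 and -0.045 with ght6, against 0.74 to 0.838 over the stressed arrays.

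ght6, ght5, ght8 and ght1 lie in this order in a stretch of chromosome III, by the RefSeq gene table (assembly ASM294v3), with 2, 4 and 0 protein-coding genes between neighbours. The 4 did not move alike without peroxide: at 240 min the changes were 0.05 for ght6, -0.18 for ght5, -1.36 for ght8 and 2.73 for ght1. ght2, ght4 and ght7 lie on chromosome II and ght3 on chromosome I. ght4 lies next to the maltase gene mal1, whose change without peroxide at 240 min was 0.15 (adjusted p = 0.874), against 1.18 for ght4. No coordinates were used, since no build is named for the probe sets.

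Other genes of glucose sensing, of sugar use and of the TORC2 pathway, which controls Ght5 at the cell surface, were read beside the members. The lists held 24 genes of glucose sensing and repression (24 measured), 14 of sugar phosphorylation and other sugars (12 measured) and 17 of TORC2, Gad8 and arrestins (14 measured). In the fit over all arrays none of these genes was called at any stressed time. At 60 min of peroxide an unadjusted p under 0.05 from limma was seen for 5 of 24, 4 of 12 and 1 of 14, against 941 of all 4972 probe sets. The median log2 changes there were 0.50, 0.74 and 0.17, against 0.06 for the members and -0.11 for all probe sets.

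The 4 genes of each list with the lowest stressed F-test p are given here. mel1, which encodes an alpha-galactosidase, had a mean signal of 0.0499 ± 0.0146 (SD, n = 2) at 0 min and 1.03 ± 0.719 at 60 min, a change of 4.2 ± 1.11 (adjusted p = 0.0961), with 4.68 and 3.72 in the 2 cultures. The galactose genes gal10 (2.70 ± 1.0, adjusted p = 0.184) and gal7 (1.82 ± 0.58, 0.163), and gti1, a gene for induction of gluconate transport (1.04 ± 0.43, 0.215), also had positive values. In the glucose list, at the same time, the glucose receptor gene git3 was at -1.09 ± 0.40 (0.184), gpa2, for the G-protein alpha subunit of that pathway, at -0.51 ± 0.23 (0.242), cgs2, a cyclic AMP phosphodiesterase gene, at 0.89 (0.392) and git7 at 0.68 (0.355). In the TORC2 list gad8, for a kinase downstream of TORC2, was at 0.91 ± 0.42 (0.256), pub3 at 0.65 (0.539), ksg1 at -0.25 (0.731) and wat1 at 0.07 (0.918).

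Without peroxide, 3 of the 24 glucose genes and 3 of the 12 sugar genes were called at 240 min, and none of the 14 TORC2 genes, when 9.86% of all probe sets were. The glucose count is near that share, and nothing is read from the counts about the lists. fbp1, the gluconeogenic fructose-1,6-bisphosphatase gene that glucose represses, rose from 0.281 ± 0.0413 (SD, n = 2) to 4.64 ± 1.90, a change of 3.99 ± 0.61 (adjusted p = 0.000463). gpa2 fell by 1.35 (adjusted p = 0.00114) and cbs2, an AMP-activated kinase subunit gene, by 1.14 (0.0223). Of the sugar genes, hxk2, for hexokinase, fell by 1.51 (0.00182) and gal1, for galactokinase, by 2.08 (0.0314), while dak2, for dihydroxyacetone kinase, rose by 1.23 (0.0472). inv1, another gene that glucose represses, was not called at that time, with the change of 1.02 given above. Its shared SD of 1.39 on the log2 scale, taken over the groups of both series, was larger than that change. The test therefore could not decide on a change of this size. The inv1 signal at 240 min was 2.06-fold and 1.99-fold the 0 min signal in untreated cultures 1 and 2.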

How the data were processed

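The deposited signal per probe set was used as the authors gave it, in linear units between 0.0029 and 64.6; RNA was labelled by in vitro transcription with biotin, per the labels' protocols. Background correction, summarisation and scaling are not given in the sources used here. Signals were log2-transformed with no pseudocount. A single model (limma 3.58.1, R 4.3.3) held all 32 arrays, with a mean for each series and time (16 residual and 3.23 prior degrees of freedom), and p-values were adjusted by Benjamini-Hochberg over 4972 probe sets within each of 21 comparisons and 2 F-tests. The number of arrays limits the precision. Each series number was read as a batch culture followed through time, which pairs arrays within a series. The differences between culture 2 and culture 1 were correlated between each 2 times. The median r was 0.259 over 55 stressed pairs (lowest -0.369, 34 above 0.1) and 0.707 over 10 untreated pairs (lowest 0.362, 10 above 0.1). Calls with the culture block rest on this pairing, which these values show more weakly in the stressed series. Equal numbers in the stressed and untreated series do not link cultures. Series, time and culture were read from the sample titles. Alternatives changed the normalization, pseudocount, filter, arrays fitted, reference, block or cultures.

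The members, the 3 lists and the alternatives were chosen with earlier results of these data known. The rule for named genes took all 9 members, the 3 probe sets most like each of them, and up to 4 genes per list with the lowest stressed F-test p; other genes named (those called without peroxide, and neighbours) were chosen after their values were seen. Tested on simulated data for 60 against 0 min (10 draws, each with known changes in 200 of the 4972 probe sets), the test recovered 24.8%, 83%, 98.6% and 99.8% at log2 changes of 1, 2, 4 and 6, and 4.97% of its calls were false. The simulated noise was independent and normal, with 1 fixed spread per probe set, no culture effect and no array that stands apart. These shares therefore do not carry over to single genes here: the inv1 change of 5.61 at 60 min was not called. No sequence is printed.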

Additional observations from a re-analysis of the deposited data

Results flagged for a closer look

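The change after peroxide and the change without it differed by the test of the difference itself for 3 transporter genes, in the fit with the culture as a block over all 32 arrays and not in the fit of those arrays without it. For ght1 the difference at 240 min was -2.65 ± 0.61 (SE, adjusted p = 0.0174, limma), and its own changes were 0.08 with peroxide and 2.73 without. For ght2 it was 1.81 ± 0.48 at 180 min (adjusted p = 0.0383) and 1.94 ± 0.48 at 240 min (0.0227), where its own changes were 0.16 and -1.78. For ght7 it was -1.92 ± 0.47 at 240 min (0.0229), with -0.57 and 1.35. Both untreated cultures show each of the untreated directions at 240 min. The stressed cultures moved by 0.82 and -0.66 for ght1, 0.14 and 0.18 for ght2, and -0.70 and -0.44 for ght7.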

How the results depend on the processing

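Counts of members called are given against those over all 32 arrays. The share of all probe sets called moved as well. With the block it went from 1.07% to 8.17% at 30 min of peroxide and from 5.53% to 12.1% at 180 min untreated. Among stressed arrays from 0 to 60 min without 30 min it was 17.5% at 50 min, against 0.302% over all arrays. Shares were not taken for every alternative, so nothing is read from these counts about the members. With culture as a replicate block the count went from 0 to 3 at 30 min of peroxide, from 0 to 1 at 50, 60 and 90 min and in the stressed F-test, from 3 to 5 without peroxide at 180 min, and, for the difference of changes, from 0 to 1 at 180 min and from 0 to 3 at 240 min. The block moved no other count of members by over 1.5 times. With the block and without the 30 min array of stressed culture 2, an alternative chosen after seeing the data, it was 1 at 30, 50, 60 and 90 min and in the stressed F-test, 5 at 180 min untreated and in the untreated F-test, and 3 and 4 for the difference at 180 and 240 min. With all 4 arrays at 0 min as the reference it was 3 at 30 min, 1 at 50, 60 and 90 min and in the stressed F-test, and 5 at 180 min untreated and in the untreated F-test (from 3). With only the arrays compared it was 2 at 50 min, 1 at 60 and 90 min, 5 at 180 min untreated and 1 for the difference at 60 min. Among stressed arrays from 0 to 60 min it was 2 at 30 min and 1 at 50 and 60 min, and without 30 min 2 at 50 min, 1 at 60 min and 1 for 60 against 15 min. Centring the arrays gave 1 at 30 min and 1 for the difference at 240 min. A pseudocount of 0.1 gave 1 and 2 for the difference at 180 and 240 min, a pseudocount of 0.5 gave 2 at 240 min, and testing only probe sets with 1 symbol gave 2 there. The filter on low probe sets kept 3 of the 9 members (ght2, ght5 and ght8) and gave 2 calls at 240 min untreated. Where a culture was left out, its groups held 1 array each, assumed to vary like the other groups. Leaving out a culture or an array gave 0 to 1 at each stressed time from 30 to 240 min, for 60 against 15 min, 240 against 60 min and the stressed F-test, 0 to 4 at 180 min untreated and in the untreated F-test, 0 to 5 at 240 min untreated, and 0 to 1, 0 to 1, 0 to 1 and 0 to 3 for the difference at 60, 120, 180 and 240 min. The inv1 change at 5 min of peroxide, 0.54, was -0.06 without stressed culture 1 and 1.13 without stressed culture 2. Of 781 values under alternatives whose change over all arrays was at least 1 in size, 1 had the opposite sign (ght5, stressed 240 against 60 min, -0.34 without stressed culture 1). The cause of these shifts was not tested. Centring moved the overall median for stressed against untreated at 0 min from -0.10 to 0.03. The low signals of ght1, ght3, ght4, ght6, ght7 and inv1, with no known floor, limit their folds, as do 2 arrays per group.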
